A study of Mus musculus with 8 samples.

Results

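The windows described here are stretches of 5 kb that carried H3K9me3 with each kind of antibody before *Setdb1* was deleted, still carried it at the end of the 4′OHT treatment on day 2, and had fallen at least 1.5-fold by day 6. There are 1315 of them, 32.7% of 4018 windows enriched with both antibody sources (base windows) and a small part of the 474385 windows of chromosomes 1 to 19 in which any library had a tag. They were chosen from tag numbers. A base window had at least 84 tags in the pooled day 0 libraries of both lots of the Abcam antibody (2 times the median of 42) and at least 30 tags in the day 0 library of the Upstate-type antibody (3 times the median of 10). A member then kept, with the Upstate-type antibody, over the day 0 number divided by 1.5 on day 2 and no more than this on day 6. Of the other base windows, 1318 had already fallen at least 1.5-fold on day 2 (lost by day 2) and 1385 had not fallen this far on either day (kept through day 6).

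H3K9me3 was measured by ChIP-seq, with 6887819 to 12194174 tags per library. The cells are JM8 mouse ES cells of the C57BL/6N strain (JM8 in the labels, JM8.N4 in the paper's list of targeted *Setdb1* lines), grown without feeders, with a conditional and a null allele of *Setdb1* (*tm1c/tm2* in the paper, named *tm1a/tm2* in the sample labels) and a CreERT2 recombinase in *Rosa26*. At *T* = 0 (day 0) they were untreated. For *T* = 2d, *T* = 4d and *T* = 6d they received 0.8 μM 4′OHT for 48 h, which converts the conditional allele to a null allele (*tm1d/tm2* in the paper, *tm1c/tm2* in the labels), and were collected 2, 4 and 6 days after its start. The Upstate-type antibody, a gift to the authors that resembles the Upstate product, was used at all 4 time points, and lots 58206 and 638466 of the Abcam antibody at *T* = 0 and *T* = 6d, in 8 libraries with 1 per antibody and time point. All libraries carry the *tm2* allele and the recombinase, and untreated or treated *tm1c/+* cells were not analysed here, so 4′OHT and loss of *Setdb1* cannot be told apart. The labels do not name the clone, and these libraries hold no expression data on which the cell type could be checked.

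Setdb1 is a histone methyltransferase that trimethylates lysine 9 of histone H3. In ES cells it is brought to many of its sites by the co-repressor Trim28 and KRAB zinc finger proteins, which bind endogenous retroviruses and some imprinted loci. The mark is read by HP1 proteins and is known for silencing these sequences, and other enzymes, among them Suv39h1 and Suv39h2, place it on pericentromeric satellite DNA. In chromatin from a whole culture, a mark lost from some of the cells and a lower mark in every cell cannot be told apart.

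The Upstate-type tags of days 0, 2 and 6 chose the windows and are given as a description. The median member held 48 tags on day 0 (quartiles 37 and 72), 45 on day 2 (33 and 70) and 18 on day 6 (11 and 31), where the median of all windows on day 0 was 10. Members ranged from 30 to 812 tags on day 0 and from 0 to 293 on day 6. On day 2, 406 members (30.9%) held more tags than on day 0, against 35.1% of the base windows. By day 6, 314 (23.9%) had 10 tags or fewer, against 26.5% of the base windows.

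The day 4 library took no part in the choice. Its median over the members was 26 tags (quartiles 15 and 46), a median ratio to day 0 of 0.529. On day 4, 899 members (68.4%, 95% Clopper-Pearson interval 65.8 to 70.9%) were at or below the day 0 number divided by 1.5, against 56.1% of all base windows, 96.5% of those lost by day 2 and 6.14% of those kept. Of the members, 3 were at least 1.5-fold higher, against 1.99% of the base. Over all 247763 windows of the limma comparison below, 24.6% were lower and 19.4% higher. With the added requirement of a two-sided Fisher's exact *P* below 0.01 on tags in and out of the window, 680 members (51.7%) were lower and 1 was higher, against 46.4% and 1.19% of the base and 3.03% and 1.15% of those 247763 windows. Each such test compares 2 libraries and has no replicate check, and the day 0 library it uses also chose the windows. Intervals cover counting error over windows, which are not replicates.

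Summed over the members, tags went from 82735 on day 0 to 77314 on day 2, 46612 on day 4 and 32755 on day 6. The step from day 2 to day 4 held 61.4% of the fall (base windows 56.8%), and the step from day 4 to day 6 held 27.7% (base windows 25.3%). The first step, 10.8% against 17.9% over the base windows, is kept small by the rule, which also favours members that counted high on day 2 and low on day 6. The day 4 value lay below that of day 2 and above that of day 6 in 991 members (75.4%), against 58.0% of the base windows. In 211 members (16.0%, base 27.0%) it lay below the day 6 value, and in 53 (4.03%, base 12.4%) it was above the day 2 value. The day 2 and day 6 limits of the rule bear on each of these counts. The plot of tags by day shows member and early-lost windows with close medians before treatment (48 and 44), and well apart on day 4 (26 and 12).

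**Figure D1:**
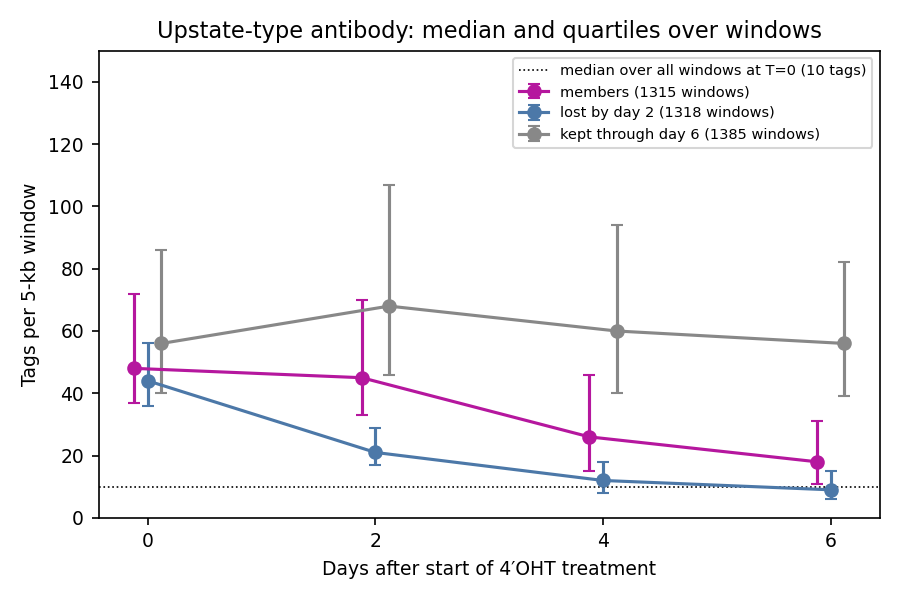
Tags per 5-kb window (vertical axis) with the Upstate-type antibody against days after the start of 4′OHT treatment (horizontal axis) for members, windows lost by day 2 and windows kept through day 6; points are medians over windows, bars are the quartiles, and the dotted line is the day 0 median of all windows. The member median goes from 48 through 45 and 26 to 18 tags; day 0, day 2 and day 6 were used to sort the windows and day 4 was not.

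Members that were low on day 4 and members that were not differed in the other libraries too. In the 899 that were low, the median went from 47 tags on day 0 to 41, 19 and 14 on days 2, 4 and 6. In the 416 that were not, it went from 50 to 58, 46 and 26. On day 6, 72.2% of the former and 27.2% of the latter were at least 1.5-fold lower with both Abcam lots, and of the base windows 74.8% and 15.4%. The split is thus not particular to members. Whether the difference exceeds that between cultures was not tested, since there is 1 library per lot and day.

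The Abcam libraries of day 6 are the check on the members, since they had no part in the rule. Their day 0 libraries chose the base windows, and this holds for members and other base windows alike. With lot 58206 the median member held 49 tags on day 0 and 20 on day 6, and with lot 638466 it held 54 and 29. Summed over the members, tags on day 6 were 0.708 and 0.521 times those on day 0 with lots 58206 and 638466. Over the base windows they were 0.895 and 0.576 times. On day 6, 878 members (66.8%, interval 64.1 to 69.3%) were at least 1.5-fold lower with lot 58206, against 56.0% of the base windows, and 977 (74.3%, 71.8 to 76.6%) with lot 638466, against 68.0%. The share for lot 638466 is near that background. Windows lost by day 2 stood at 84.9% and 88.4%, and windows kept through day 6 at 18.2% and 42.6%, so that in both lots the members lay between the other groups.

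With both lots at once, 762 members (57.9%) were at least 1.5-fold lower, against 48.7% of the base windows and 4.86% of the 247763 windows in the limma comparison below. Another 331 (25.2%, base 26.5%) were lower in 1 lot only, and 222 (16.9%, base 24.8%) in neither, against 23.7% and 71.5% of the 247763 windows. No member was at least 1.5-fold higher in both lots, against 1 of the 4018 base windows and 1.62% of the 247763. Members and base windows had to be high on day 0 in the pooled lots, which makes such a rise less likely in them. By the fold and Fisher's exact test together, 697 members (53.0%) were lower with lot 58206, against 43.6% of the base and 2.88% of the 247763 windows, and 712 (54.1%) with lot 638466, against 47.6% and 3.17%. With lot 58206, 131 (9.96%) were higher by both criteria, against 17.5% of the base and 2.94% of the 247763 windows, and with lot 638466 none was. To free the check from the choice of base windows, the base was also chosen on the day 0 library of the other lot alone. Then 76.9% of 1016 members were lower with lot 58206, against 68.7% of that base, and 63.6% of 1987 were lower with lot 638466, against 55.5%. These bases held 3168 and 6197 windows, and their windows kept through day 6 stood at 38.4% and 32.7%.

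The lots differed in shape. With lot 58206, 144 members (11.0%) were at least 1.5-fold higher on day 6, against 19.6% of the base windows, 44.3% of those kept through day 6 and 14.8% of the 247763 windows, and with lot 638466 none of the 1315 was, against 0.0747% of the base and 7.97% of the 247763 windows. In the 144, the median went from 60 to 107.5 tags with lot 58206, from 40.5 to 30 for lot 638466, and from 43 to 25 with the Upstate-type antibody. The plot of Abcam ratios shows 2 groups of members with lot 58206, a larger group of falls and a smaller group around or above no change, and a single peak below no change with lot 638466.

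**Figure D2:**
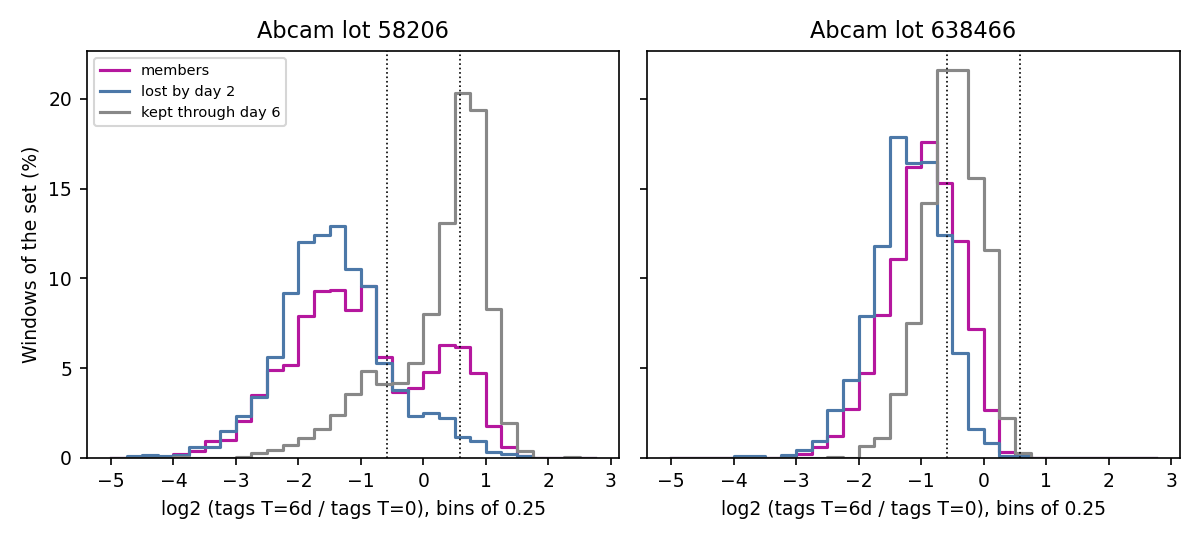
Share of the windows of each set (vertical axis, %) by the log2 ratio of tags on day 6 to day 0 (horizontal axis, bins of 0.25) with lot 58206 (left) and lot 638466 (right); dotted lines mark 1.5-fold lower and higher. With lot 58206 66.8% of members lie at or left of the lower line and 11.0% at or right of the upper line; with lot 638466 74.3% lie at or left of the lower line and none at or beyond the upper.

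Over both lots, day 6 was compared with day 0 by limma with the lot as a term, across all 247763 windows that averaged at least the pooled day 0 median, a limit that every base window meets whatever its day 6 tags. The day 0 libraries of this comparison also chose the base windows, so that members had to be high in 1 of its arms, and their values are to be read beside those of the base. The median log2 fold change of the members was −0.89 (quartiles −1.31 and −0.31), against −0.72 over the base windows, −1.13 over those lost by day 2, 0.03 over those kept and −0.04 over all windows tested. At over 1.5-fold and an adjusted *P* (Benjamini-Hochberg) below 0.05, 449 members (34.1%) were lower, against 29.0% of the base windows and 1.43% of all tested, and 0 were higher, against 0 of the base windows and 0.112% of all tested. At an unadjusted *P* below 0.05, limma gave 767 members (58.3%) lower and 0 higher, against 49.9% and 0 of the base windows and 6.14% and 2.10% of all tested, while 131 were higher by Fisher's exact test with lot 58206 alone. The count rests on the filter and the window size. With windows averaging at least 2 times the median, limma called 0 of 598 members tested and 2 of all 8867 windows lower. With no filter it called 0 of 1315 members and 0 of 474385 windows. At an unadjusted *P* below 0.05 these fits gave 123 and 808 members lower, and 296 and 22903 of all windows. In windows of 2 kb limma called 0 members and 0 of 599110 windows. Without the lot as a term it called 60 members and 186 of 247763 windows. The lots are antibody preparations, and whether their libraries came from separate cultures is not known here. Each window has 1 residual degree of freedom, so limma draws its standard error towards a trend with tag level over all windows tested. The standard errors and *P* values therefore rest largely on other windows and not on a window's own spread between lots. They cannot be read as a spread between cultures.

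The largest falls of called members in this comparison are given with their Upstate-type tags, whose fall by day 6 the rule requires. They were picked as the largest, so their *P* values describe them and support nothing further. The first was chr10:82875001-82880000 (mm9), where tags fell from 124 to 12 for lot 58206, from 106 to 13 for lot 638466, and through 109, 73, 31 and 27 with the Upstate-type antibody on days 0, 2, 4 and 6. Both lots came down to 12 and 13 tags, below their genome medians of 16 and 25. Its log2 fold change over the lots was −2.77 (standard error 0.41, limma adjusted *P* = 3.62e-08). At chr4:106060001-106065000, tags went from 216 to 18, from 176 to 36, and through 322, 270, 100 and 108 in the same order of antibodies (−2.71, standard error 0.72, limma adjusted *P* = 0.0163). At chr10:41520001-41525000 they went from 145 to 17, from 168 to 26, and through 160, 118, 40 and 29 (−2.63, standard error 0.59, adjusted *P* = 0.00214). In all 3 windows most of the Upstate-type fall had come by day 4. The next falls were at chr15:36925001-36930000 (−2.54), chr15:96410001-96415000 (−2.49) and chr6:120765001-120770000 (−2.48), the last of which lies next to a stretch without unique tags. In these 6 windows the day 4 ratio ranged from 0.25 to 0.389.

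Among the views of *H19*, *Olfr901*, *Cdh3* and a control region in the paper, 1 window belongs to the members. It is chr9:38225001-38230000, in the view of *Olfr901*, a gene for an odorant receptor of the olfactory epithelium. Its tags were 49, 40, 7 and 2 on days 0, 2, 4 and 6 with the Upstate-type antibody, 57 and 17 with lot 58206, and 38 and 18 with lot 638466. With the Upstate-type antibody it kept most of its tags to day 2 and was below the genome median from day 4. The ratio on day 4 was 0.143 (Fisher's exact test, *P* = 7.45e-09), and the log2 fold change over the Abcam lots was −1.20 (standard error 0.29, limma adjusted *P* = 0.00589). The day 0 libraries of both comparisons also chose the member, so these *P* values describe it and support nothing further. The windows to its left, chr9:38215001-38220000 and chr9:38220001-38225000, had 35, 32, 9 and 10 and 44, 31, 6 and 6 Upstate-type tags over the same days. They followed a like course and are no members because their 73 pooled Abcam tags each fell short of 84. The window to its right, chr9:38230001-38235000, went through 48, 17, 22 and 1. The last window of the view, chr9:38235001-38240000, went through 16, 19, 45 and 17, 2.81 times as many on day 4 as on day 0 (*P* = 0.000264, Fisher's exact test). It had 24 and 9 tags of lot 58206 and 27 and 33 of lot 638466. At *H19*, an imprinted noncoding RNA gene, 1 base window was lost by day 2, as were the 3 base windows at *Cdh3*, which encodes P-cadherin, and the control window on chromosome 4 was kept through day 6.

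Most members had no other member beside them. Joined where they neighbour each other, the 1315 windows made 1185 regions, of which 1086 were single windows and 99 held 2 windows or more. The single windows were 82.6% of the members, against 81.9% of windows lost by day 2 and 81.6% of windows kept. Of all 4018 base windows, joined in the same way, 72.1% were single. The longest member region was chr10:82870001-82905000, with 7 windows. Its tags went through 757, 591, 240 and 212 with the Upstate-type antibody. For lot 58206 they went from 678 to 98, and for lot 638466 from 681 to 171. All 7 windows were lower in both lots by 1.5-fold, and limma called 6 of them. It lies in the 5 Mb of the genome with most members, chr10:80000001-85000000, which holds 20 members of 40 base windows.

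The other long regions took different courses. At chr2:162880001-162905000 (5 windows), Upstate-type tags went through 762, 706, 523 and 334, so that much of the fall came after day 4. At chr4:146835001-146860000 (5 windows) they went through 509, 516, 238 and 187, with most of the fall between days 2 and 4. In both, the Abcam lots fell, to 0.509 and 0.426 times day 0 on chromosome 2 and to 0.253 and 0.434 times on chromosome 4 (lots 58206 and 638466). At chr8:27080001-27105000 (5 windows), the Upstate-type antibody went through 385, 414, 289 and 210, while lot 58206 went from 300 to 308 and lot 638466 from 348 to 268. None of its 5 windows was 1.5-fold lower in both lots. One was with lot 58206 (chr8:27080001-27085000, 56 to 31 tags) and another with lot 638466 (chr8:27090001-27095000, 83 to 49 tags). It lies in a stretch, chr8:25000001-30000000, where 19 of 100 base windows are members.

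The 4 regions of 3 windows with most day 0 tags were lower with both Abcam lots, at 0.128 to 0.326 times day 0 with lot 58206 and 0.219 to 0.335 times with lot 638466. At chr1:52980001-52995000, tags went through 320, 298, 151 and 49 with the Upstate-type antibody, and to 0.128 and 0.335 times day 0 with lots 58206 and 638466. At chr1:7110001-7125000 they went through 314, 290, 120 and 80. At chr15:36920001-36935000 they went through 541, 517, 283 and 192, and at chr5:23205001-23220000 through 308, 327, 172 and 135. In the plot of the regions, the Upstate-type line stays high to day 2 in all 8, as the rule requires of their windows, and the Abcam lines end low in 7 of 8.

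**Figure D3:**
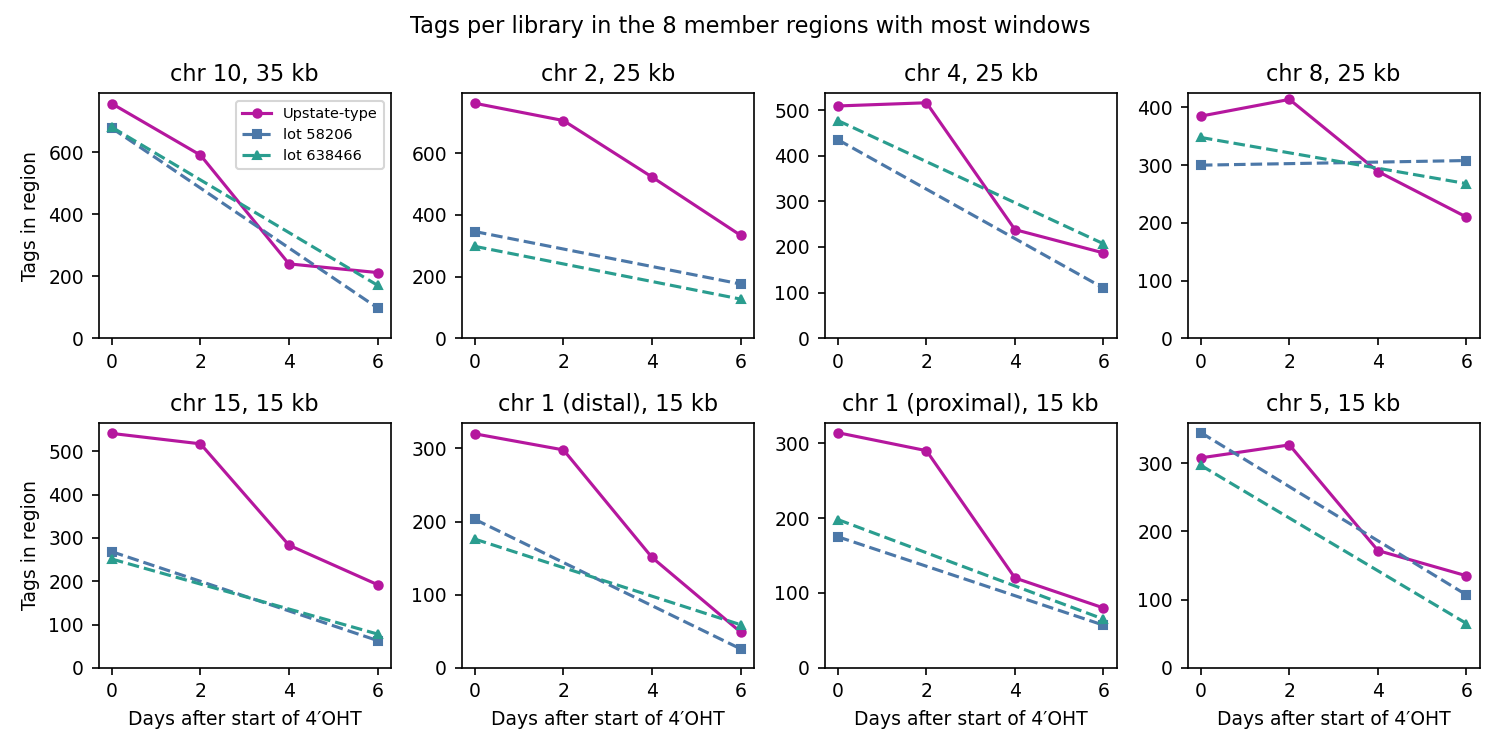
Tags summed over each of the 8 member regions with most windows (vertical axes) against days after the start of 4′OHT (horizontal axes) with the Upstate-type antibody (4 libraries) and Abcam lots 58206 and 638466 (2 libraries each); each point is 1 library and panels have their own scale. The 35-kb region of chromosome 10 ends at 212, 98 and 171 tags, while lot 58206 stays level in the chromosome 8 region (300 and 308).

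Members with many tags differed widely in when they fell. Among members with at least 60 tags on day 0, the earliest by the day 4 ratio was chr6:129035001-129040000, with 60, 58, 4 and 3 Upstate-type tags on days 0, 2, 4 and 6. It was followed by chr1:119350001-119355000 with 80, 75, 7 and 4, and by chr16:93665001-93670000 with 60, 43, 6 and 5. These were at background within 2 days of the end of treatment, and all 3 were called lower by limma over the Abcam lots (adjusted *P* = 0.0198, 4.16e-05 and 0.00361). They were picked by their day 4 ratio, and the day 0 Abcam libraries chose the base windows, of which limma called 29.0%. The *P* values therefore describe these windows and support nothing further. At chr1:7485001-7490000, 61, 63, 7 and 21 tags were counted, and limma's adjusted *P* was 0.053.

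In all, 80 members (6.08%) held more tags on day 4 than before treatment, against 20.6% of the base windows, and the 4 with the highest ratio among those with at least 60 tags are named here. At chr11:9020001-9025000, tags went through 81, 172, 129 and 33 with the Upstate-type antibody. For lot 58206 they went from 35 to 23, and for lot 638466 from 50 to 37. Its rise on day 4 was 1.59-fold (Fisher's exact test, *P* = 0.00113). The 4 were picked by this ratio, and the day 0 library it uses also chose the windows. The *P* values therefore describe them and support nothing further. At chr6:88845001-88850000 the Upstate-type antibody counted 61, 68, 78 and 39 tags, at chr7:36310001-36315000 102, 149, 127 and 67, and at chr13:3480001-3485000 129, 182, 160 and 76. The day 4 values of the latter 3 did not pass the test (Fisher's exact test, *P* = 0.175, 0.113 and 0.0774). Of the 4, limma called only the chromosome 7 window lower over the Abcam lots (adjusted *P* = 0.0262). The day 0 Abcam libraries chose the base windows, of which limma called 29.0%, so this *P* value too is a description.

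The 4 members with most tags differed with the Abcam lots. One of them, chr4:106060001-106065000, is among the largest falls above (ratios of 0.0833 and 0.205), and the other 3 fell by less with lot 58206 than the median member (0.465). The window with most, chr11:3090001-3095000, lies in the first Mb of the covered part of chromosome 11 and held 812, 554, 299 and 228 Upstate-type tags, 1200 and 909 tags of lot 58206, and 1518 and 921 of lot 638466. At chr13:120275001-120280000, in the last Mb of chromosome 13, tags went through 507, 481, 320 and 293, and at chr15:74915001-74920000 through 467, 409, 278 and 198. These 3 remained far above the genome median on day 6. Their ratios on day 6 were 0.757, 0.866 and 0.709 with lot 58206, and 0.607, 0.529 and 0.772 with lot 638466. limma gave them standard errors of 5.75, 3.46 and 3.39 on the log2 scale and called none of them (adjusted *P* = 0.988, 0.978 and 0.983). These standard errors come from limma's trend with tag level and are far wider than the difference between the ratios of the lots. The missing calls thus do not show that the lots disagreed.

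Windows beside members also held fewer tags on day 6. Of the 2630 windows on either side of members, counted once for each member they adjoin, 2144 (81.5%) were no base windows, 260 were members, 145 were lost by day 2 and 75 were kept. Of the 2144, 821 (38.3%) reached the Upstate-type limit on day 0 and fell short of the Abcam limit only. The later tags of the 2144 took no part in the rule. Their Upstate-type tags, summed, were 1.08 times those on day 0 on day 2, 0.867 times on day 4 and 0.705 times on day 6, where all windows tested by limma stood at 0.973 times. Their Abcam tags on day 6 were 0.802 and 0.778 times those on day 0 with lots 58206 and 638466, against 1.01 and 0.942 times over all windows tested. At 5 to 10 kb from the window centres, the mean on day 6 was 0.664 times that on day 0 with the Upstate-type antibody, and 0.718 and 0.729 times with the lots. There, windows lost by day 2 stood at 0.602, 0.688 and 0.703 times, and windows kept through day 6 at 0.964, 0.953 and 0.837 times. From 20 to 25 kb away, the mean on day 6 was still 0.795 times that on day 0 with the Upstate-type antibody (5.86 and 4.66 tags per kb), and 0.822 and 0.824 times with the lots. The same distance from windows lost by day 2 gave 0.808, 0.844 and 0.829 times, and from windows kept through day 6 0.951, 0.953 and 0.834 times, so that a lower level this far out is not particular to members.

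**Figure D4:**
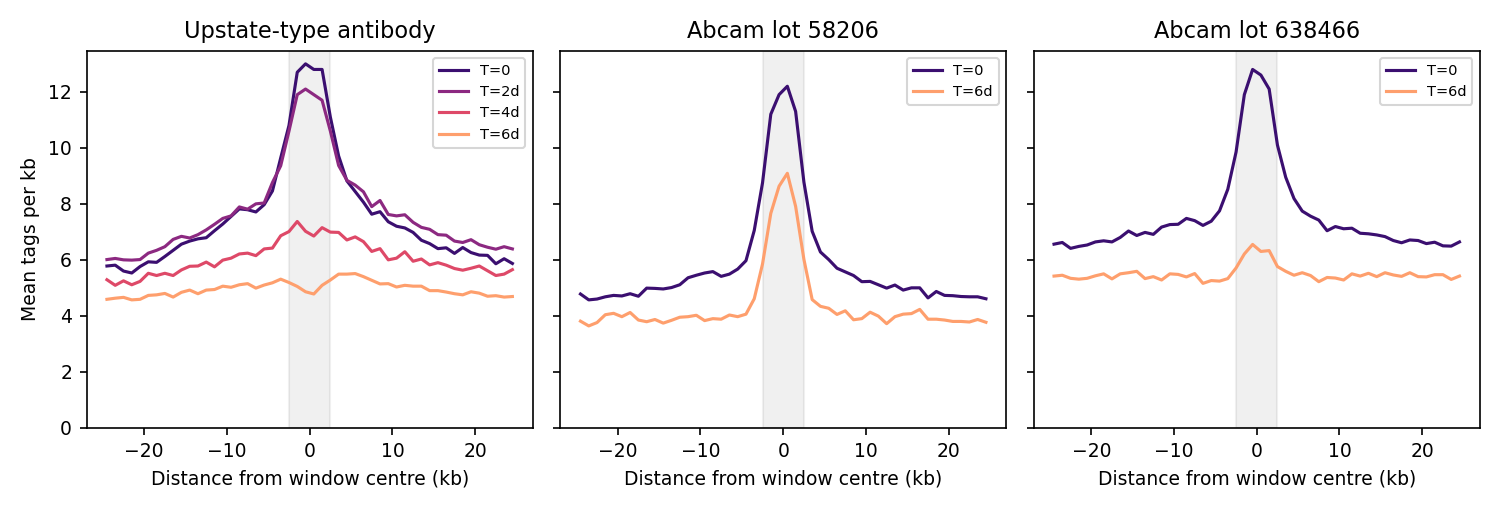
Mean tags per kb (vertical axis) against distance from the centre of the member windows in kb (horizontal axis), averaged over 1315 members, with the Upstate-type antibody, lot 58206 and lot 638466; each line is 1 library and the grey band is the member window. The Upstate-type peak of 12.9 tags per kb in the central 2 kb on day 0 is 12.0 on day 2, 6.93 on day 4 and 4.82 on day 6, and with lot 58206 a peak of 8.86 remains on day 6.

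Within the members, the tags were gathered in a part of the window, and this part fell further than the rest. The densest kb of each member, found from the day 0 tags of the Abcam lots, held 26.0% of the Upstate-type tags on day 0, 23.1% on day 2, 19.8% on day 4 and 20.0% on day 6, where an even spread gives 20%. On day 2 it stood at 0.83 times day 0, against 0.971 times for the other 4 kb. On day 4 the values were 0.429 and 0.611, and on day 6 0.305 and 0.428. On day 6 they were 0.188 and 0.291 in windows lost by day 2, and 0.883 and 0.963 in windows kept. On day 0 this kb held 31.6% of the tags in windows lost by day 2, and 16.6%, under an even spread, in windows kept. In members, background tags take a larger share of the other 4 kb, which have fewer tags per kb, and their part in this difference was not tested.

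The members lay on all 19 chromosomes. Chromosome 8 held the most, 133 members or 5.35 per 1000 windows, against 2.07 to 3.55 per 1000 on the others. It also held the most base windows (17.8 per 1000), and 30.1% of these were members. As a share of the base windows, members ranged from 24.8% on chromosome 19 to 45.4% on chromosome 18 (59 of 130). The first Mb of the covered chromosomes held 21 members (1.60%), against 2.41% of the base windows, 4.19% of the windows kept through day 6 and 0.773% of all windows. The last Mb held 15 (1.14%), against 1.17% of the base windows and 0.799% of all windows. Without chromosome 8, an alternative chosen after the data were seen, 827 of 1182 members were low on day 4, where 58.2% of the base windows were, and 68.1% and 76.5% with lots 58206 and 638466, against 57.1% and 70.2% of the base windows.

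**Figure D5:**
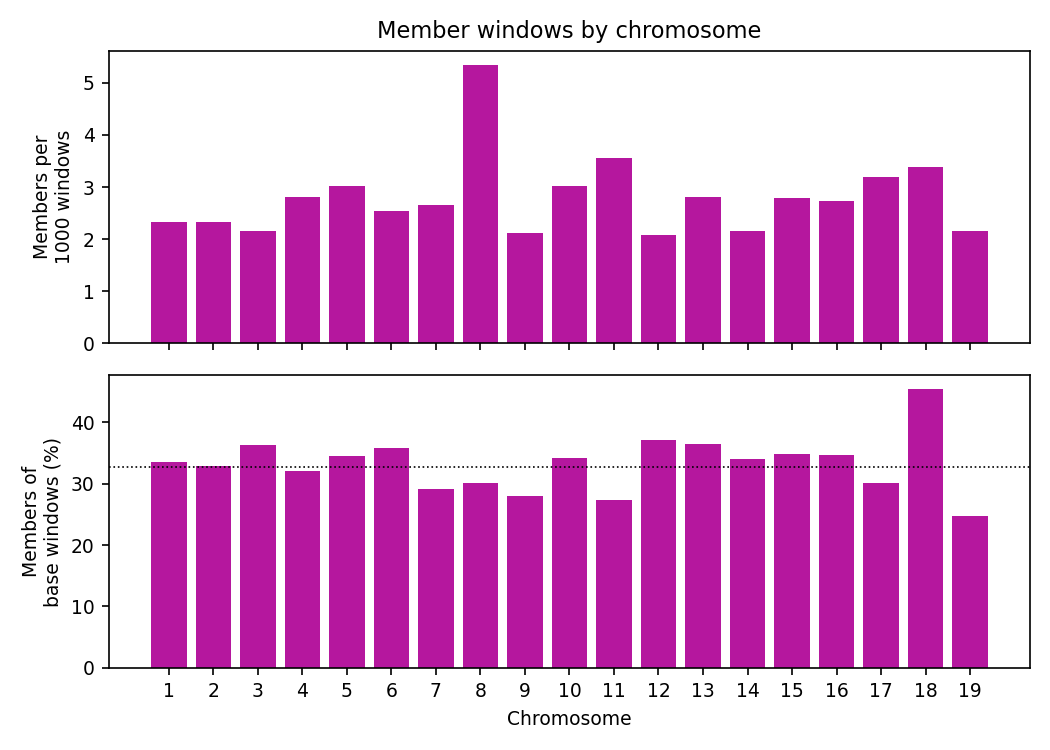
Member windows per 1000 windows (top) and members as a share of the base windows (bottom, %; dotted line, 32.7% over all chromosomes) for chromosomes 1 to 19 (horizontal axis). Chromosome 8 is highest by number (5.35 per 1000) and chromosome 18 by share (45.4%).

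Uniquely mapped short tags cannot be placed inside long repeats that have near-identical copies, among them young endogenous retroviruses, and such stretches can appear as gaps that no tag of any library covers. What the gaps contain was not determined here. Gaps of 4-9 kb lay within 5 kb of 54 members (4.11%, interval 3.10 to 5.32%), against 5.54% of windows lost by day 2, 0.939% of windows kept, 3.48% of the base, 1.79% of the windows tested by limma and 4.44% of all windows. Gaps of 1.5-4 kb lay next to 90 members (6.84%), against 8.65%, 1.01%, 5.43%, 2.30% and 6.55% in the same order. The members' shares are near those of all windows, many of which hold few unique tags.

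Members next to gaps, like other base windows there, were more often low on day 4. Of the 54 next to a gap of 4-9 kb, 92.6% were low on day 4, and of 86 next to a gap of 1.5-4 kb only, 94.2%, against 65.4% of the 1175 with no such gap. The base windows stood at 88.6%, 90.9% and 52.9% in the same order. The median day 4 ratios were 0.447, 0.329 and 0.559. With lot 58206 on day 6, 75.9%, 93.0% and 64.4% of these groups were low, and with lot 638466 81.5%, 89.5% and 72.9%. The base windows stood at 79.3%, 86.6% and 53.3% with lot 58206 and at 84.3%, 89.5% and 66.1% with lot 638466. These are shares of windows in single libraries, and their difference was not tested.

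The limits of the rule cut through a continuum. At the Abcam limit of 84 pooled tags, chr10:121045001-121050000 (84) is a member and chr11:9025001-9030000 (83) is not, although its Upstate-type tags went through 174, 224, 170 and 44. At the Upstate-type limit, chr5:111235001-111240000 (30 tags) is a member and chr5:120120001-120125000 (29) is not. At the day 2 limit, chr3:108495001-108500000 kept 57 of 85 tags and is a member, while chr3:115605001-115610000 kept 62 of 93 and counts as lost by day 2. At the day 6 limit, chr3:51065001-51070000 (111 to 74) is a member and chr8:114495001-114500000 (112 to 75) counts as kept.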

How the data were processed

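The authors kept uniquely mapping tags with up to 1 mismatch, equalised tag numbers between the time points of an antibody, and deposited every tag as an interval of 300 bp without strand or score (build mm9, per the submitters' processing notes); the aligner is not given in the sources used here. The unit of the deposited files is therefore other than a count: 1 line per tag, with 6887819 tags per Upstate-type library, 8503927 per library of lot 58206 and 12194174 per library of lot 638466, and no start repeated within a library. Chromosomes X and Y were left out of the rule.

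Tags were placed by interval midpoint in 5-kb windows (scipy 1.17.1, pandas 2.3.3, numpy 2.4.6, Python 3.11.15) and compared as deposited. Libraries were grouped by time point and antibody from the labels, with the antibody as the replicate number. limma 3.58.1 in R 4.3.3 (eBayes with trend) was run on log2(tags per 1000000 deposited tags + 0.5), and Benjamini-Hochberg adjustment was over all windows tested. The numbers pair the libraries, since they name the antibody: deviations from the time point means correlated within an antibody with r = 0.729, 0.624 and 0.516. The tests were tested on simulated data. The simulated tags held counting error only, so this does not cover a spread between lots in the change by day 6. Figures used matplotlib 3.10.9.

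The windows named are the 4 loci of a browser view of the paper (boxes as drawn there, to about 1 kb), the 8 longest regions, the 6 largest limma falls, the 4 lowest and 4 highest *T* = 4d ratios, the 4 windows with most tags, windows beside each limit, and rises over 1.5-fold in both lots, of which there were none. The members and lists were chosen with earlier results of these data known. Gene annotation and sequence were not used here, since the reference at hand is of another build and coordinates were not converted. Alternatives were other windows, limits, scalings, filters, pseudocounts and models, and leaving out each lot. Input libraries and *tm1c/+* cells were not analysed here, and 0 columns of values were set aside.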

Additional observations from a re-analysis of the deposited data

Results flagged for a closer look

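In 50 members the Abcam lots moved in opposite directions past 1.5-fold, up with lot 58206 and down with lot 638466, and in 0 members the reverse was seen. Their median went from 59 to 105.5 tags with lot 58206, from 47.5 to 26 with lot 638466, and through 45.5, 47.5, 37.5 and 26 with the Upstate-type antibody on days 0, 2, 4 and 6. The share was 3.80% of members, against 7.72% of the base windows, 17.4% of windows kept through day 6 and 1.66% of all windows tested by limma. The reverse was seen in 0 base windows and 0.791% of all windows tested. The difference between the lots was not tested, as each lot has 1 library per time point.

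Chromosome X is outside the rule. By the same limits, 8 of its 19 base windows (42.1%) were chosen, against 32.7% on chromosomes 1 to 19. Of these 8, 4 were at or below the day 0 number divided by 1.5 on day 4, 5 with lot 58206 and 6 with lot 638466 on day 6. Over the base windows of chromosomes 1 to 19 the shares were 56.1%, 56.0% and 68.0% in the same order. Shares over the 19 base windows of chromosome X are not given here, and no difference was tested.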

How the results depend on the processing

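Of 86 alternative values, 38 stayed within 1.5 times the count or within the interval of the share as reported. The values are counts and shares, which have no direction to change. The share of members among base windows stayed between 32.4% and 33.2% under other windows and limits, and was 36.1% with 2-fold in the member rule and 41.8% with scaling to background windows. The values below are, where given, the numbers of members and of joined regions, the shares low on day 4, with lot 58206 and with lot 638466, those next to gaps of 4-9 kb and 1.5-4 kb, and the members lower by limma. Windows of 2 kb gave 4106 members and 3577 regions, 74.8% on day 4, 76.3% with lot 58206, 9.13% next to gaps of 1.5-4 kb, and 0 by limma (2321 at an unadjusted *P* below 0.05). Over all 599110 windows of this size tested, limma called 0 lower, with 28140 at an unadjusted *P* below 0.05. Windows of 10 kb gave 468 and 425, 63.9% and 77.8% with the lots, 2.56% and 5.13% next to gaps, and 171 by limma. Over all 121296 windows of this size tested, limma called 3117 lower. An Abcam limit of 3 times the median gave 262 and 233, 72.9%, 76.0% and 86.6%, and 108 by limma. An Upstate-type limit of 5 times gave 628 and 554, 73.4% and 79.0% with the lots, 4.62% next to gaps of 1.5-4 kb, and 256 by limma. With these higher limits limma tested the same windows, of which fewer were members. With 2-fold in the rule the shares were 89.4%, 82.9%, 83.6%, 5.44% and 9.57%. The base windows are then those reported, at 56.1% on day 4 and 56.0% and 68.0% with lots 58206 and 638466. With scaling to background windows 60.5% of members were low with lot 58206 and 75.8% with lot 638466. The shares of the base windows on day 4 and with lots 58206 and 638466 were 70.3%, 73.4% and 74.5% in windows of 2 kb, 47.8%, 47.3% and 63.3% in windows of 10 kb, 60.3%, 58.4% and 73.5% with the higher Abcam limit, 47.6%, 55.6% and 67.7% with the higher Upstate-type limit, and 61.6%, 56.8% and 73.9% with scaling to background windows. In windows of 2 kb (3078 of 4106 members with lot 638466) and with scaling to background windows, the members were thus close to the base with both lots. The cause of these moves was not tested.

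Choosing the base on the other lot gave 76.9% with lot 58206 and 63.6% with lot 638466. Requiring Fisher's exact *P* below 0.01 gave 51.7% on day 4, 53.0% and 54.1% with the lots. Gaps of any length of at least 1 kb lay next to 14.3% of members, gaps of 4-9 kb within 1 kb of 1.83% and in or touching 1.06%, and gaps of 1.5-4 kb within 1 kb of 3.50% and in or touching 2.13%. No background share is given for these definitions, so they show only how the members' share moves with the definition. By limma, filtering at 2 times the median and no filter called 0 members, and the fit with no replicate block, which ignores the pairing by antibody, called 60, all among the 449. Over all windows these fits called 2 of 8867, 0 of 474385 and 186 of 247763 lower. Without a trend limma called 452 members, 389 of them among the 449, and 1935 of all windows. Leaving out a lot leaves 1 library per time point and no test: between 878 and 977 members were then past 1.5-fold. Depth limits single windows, since at the Upstate-type limit of 30 tags a 1.5-fold fall is a difference of 10 tags.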

Other observations

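Members with more tags on day 0 were more often low with the Abcam lots on day 6. Among members with 30 to 37 Upstate-type tags on day 0, 44.1% were at least 1.5-fold lower in both lots, and among those with 38 to 48, 49 to 72 and 73 to 812 tags 57.6%, 58.0% and 72.4%. Base windows of the same tag ranges stood at 42.3%, 53.0%, 51.0% and 48.5%, and those lost by day 2 at 65.0%, 77.7%, 85.8% and 91.4%. The day 0 tags were used by the rule, so these are descriptions. The share low on day 4 did not follow this order (69.8%, 71.8%, 66.7% and 65.0%, and 63.2%, 64.9%, 56.1% and 39.2% of the base windows). Windows with few tags have wider counting error in every library, and its part in this was not tested.

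Across the 1315 members, the log2 ratio of day 4 to day 0 with the Upstate-type antibody and that of day 6 to day 0 had a Pearson correlation of r = 0.547 for lot 58206 and 0.402 for lot 638466 (rho = 0.563 and 0.433 by Spearman), on tags + 1. These pairs share no library. Both lots correlated with r = 0.589 and rho = 0.591. Over the 4018 base windows the values were r = 0.655, 0.568 and 0.621 (rho = 0.679, 0.591 and 0.623), higher than over the members. The points are windows of the same few libraries and not replicates.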
